A study of Mus musculus with 12 samples.

Results

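The expression of 10 genes of the inflammasome and NOD pathways was followed through the subsets of mouse small intestinal (SI) eosinophils, sorted as live CD45+ CD11b+ SiglecF+ MHCII− Ly6G− cells of the lamina propria in the upper SI. The 10 genes were taken by symbol from a table of 36047 genes: the sensors Nlrp3, Nlrp1b, Nlrc4 and Aim2, the peptidoglycan receptors Nod1 and Nod2, the adaptor Pycard, the caspases Casp1 and Casp4, and the pore former Gsdmd. All 10 were found, and all 10 were among the 15249 genes with an average normalized count above 10 that were tested. The subsets were α4β7+, α4β7− CD22− and CD22+ eosinophils, with 4 libraries each and 12 libraries in all. Every library was labelled as coming from female wild type C57BL/6J mice with no treatment, no age was given in the labels, and each library pooled the cells of 2 mice. The subset markers followed the sort. Cd22 averaged 1115 normalized counts in α4β7+, 4462 in α4β7− CD22− cells and 13330 in CD22+ cells, Itgb7, the β7 chain, averaged 2526, 220.4 and 155.8, and Siglecf, the marker of the sort, averaged 7534, 7827 and 7340. Of 9 eosinophil markers, which include Cd22 and Itgb7, 4 were called lower in α4β7− CD22− and 6 in CD22+ than in α4β7+ cells, and 1, Cd22, was called higher in both. Among those called lower, Ccr3 averaged 25120, 15190 and 10770 and Prg2 averaged 352.4, 185.1 and 109.7. The median sum of the 9 was 105500, 77350 and 71660, and its part in the results was not tested.

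Inflammasomes are protein platforms that form in the cytosol when a sensor detects a microbial product or cell damage. The sensor recruits caspase-1, directly or through the adaptor ASC, and caspase-1 then matures IL-1β and IL-18 and cleaves gasdermin D, whose fragments open pores in the membrane and cause pyroptosis. Caspase-11, the product of mouse Casp4, binds bacterial lipopolysaccharide itself and also cleaves gasdermin D, while NOD1 and NOD2 bind fragments of peptidoglycan and signal through RIPK2 to NF-κB without forming an inflammasome. In the intestine these genes are known for guarding the epithelium and the lamina propria against bacteria that leave the lumen.

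A normalized count is a gene's estimated read count after the authors scaled the libraries to each other with DESeq2. The libraries summed to between 14286474 and 16915755 normalized counts, 3 reads were estimated to be worth between 2.556 and 3.477 normalized counts, an approximate figure because many low values were not whole multiples of a read, and the correlation between libraries ranged from 0.921 to 0.966. A gene was called when limma's Benjamini-Hochberg adjusted p over the 15249 genes was at most 0.05 and the fold change at least 1.5. Fold changes are on the scale of log2(normalized count + 1), which understates the change of low genes. RNA was taken from bulk sorted cells, so fewer cells that express a gene and less RNA of it per cell cannot be told apart.

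Of the 10 genes, Nlrp1b and Casp4 were called in α4β7− CD22− against α4β7+ cells, in opposite directions. Nlrp1b was higher and Casp4 was lower in the α4β7− CD22− cells, and the other 8 did not pass. Over all genes tested in this comparison 3.7% were called higher and 4.35% lower. The median log2 change was −0.003 over the 10 genes and 0.003 over all genes. In CD22+ against α4β7+ cells Casp4 was called lower and none of the other 9 was called, beside 5.6% of all genes called higher and 6.39% lower. The medians were −0.031 and 0.014. An unadjusted limma p under 0.05 was reached by 5 of the 10 genes in the first comparison, beside 27.1% of all genes. In the second it was reached by 4 of the 10, beside 32.0%. Between the CD22+ and α4β7− CD22− cells 0 of 10 genes were called by limma, 0 had an unadjusted p under 0.05 beside 9.67% of all genes, and 0.21% of all genes were called higher and 0.393% lower. The medians were −0.044 and −0.001. The first and second comparison share the α4β7+ libraries, so their values are given side by side and are not independent of each other.

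**Figure D1:**
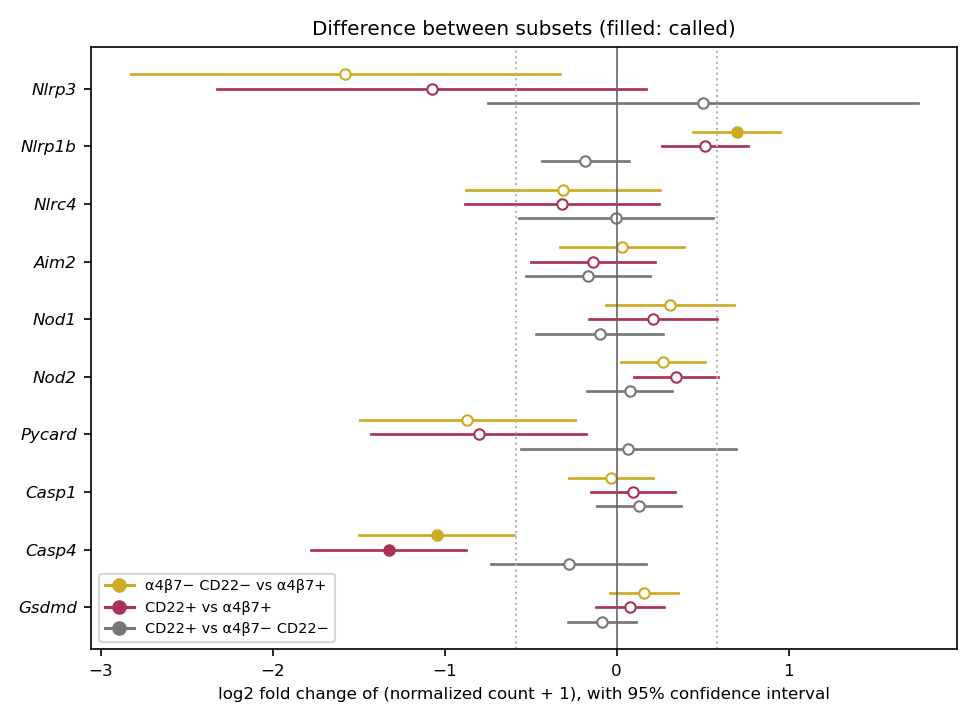
Log2 fold change of each of the 10 genes in the 3 comparisons between subsets, with bars for the 95% confidence interval from limma. Casp4 lies at −1.05 and −1.33 against α4β7+ cells and Nlrp1b at 0.70 and 0.51, while Casp1 and Gsdmd lie close to 0 with short intervals.

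The sequence just upstream of the start site is shown for the called genes, Casp4 and Nlrp1b, and for Casp1, the neighbour of Casp4. Each is the 250 bases before an annotated start, read 5′ to 3′ on the strand of the gene from RefSeq (GRCm38.p6), and capitals mark matches to the NF-κB consensus on either strand.
Casp4 (chr9:5308599-5308848, + strand): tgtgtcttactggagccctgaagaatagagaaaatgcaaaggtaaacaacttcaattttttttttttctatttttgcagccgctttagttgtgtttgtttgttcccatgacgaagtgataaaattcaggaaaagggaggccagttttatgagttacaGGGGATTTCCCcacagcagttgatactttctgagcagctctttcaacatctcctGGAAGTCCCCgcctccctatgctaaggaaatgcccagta
Casp1 (chr9:5298267-5298516, + strand): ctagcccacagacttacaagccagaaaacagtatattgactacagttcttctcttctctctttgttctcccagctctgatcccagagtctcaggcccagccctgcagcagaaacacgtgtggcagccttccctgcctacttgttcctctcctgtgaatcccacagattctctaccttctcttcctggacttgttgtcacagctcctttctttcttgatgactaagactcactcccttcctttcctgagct
Nlrp1b (chr11:71230734-71230983, minus strand): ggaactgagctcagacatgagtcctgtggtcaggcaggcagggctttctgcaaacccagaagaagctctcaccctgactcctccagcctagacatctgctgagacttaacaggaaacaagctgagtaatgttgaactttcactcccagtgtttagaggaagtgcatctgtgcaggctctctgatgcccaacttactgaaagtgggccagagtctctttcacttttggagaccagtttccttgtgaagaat
The Casp4 sequence held 3 matches that lie in 2 stretches. The first 2 overlap and begin 93 and 92 bases before the start, and the last begins 39 bases before it. Neither the Casp1 sequence nor the Nlrp1b sequence held a match to any of the 5 motifs searched. These were NF-κB, the core GAAANNGAA of interferon-stimulated response elements (ISRE), the GAS motif TTCNNNGAA, the AP-1 motif TGANTCA and the CRE motif TGACGTCA. The search ran over both strands of the window from 250 bases before to 50 after each start, for the 9 genes with an entry. Among the others, 1 of 2 Nlrp3 windows held an NF-κB match, 186 bases before its start, and 1 of 2 Nod1 windows held a GAS match, 193 bases before its start. Of 32851 promoters in the same table, 8.5% held an NF-κB match, 8.6% the ISRE core, 8.3% GAS, 7.8% AP-1 and 1.8% CRE. A match is a run of letters in a window and was not tested as a binding site.

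Nlrp1b, a sensor that is held in check by DPP8 and DPP9 and is released when its N-terminal part is degraded, lies at chr11:71153102-71230733 on the minus strand (GRCm38). Its normalized counts were 1122, 963.8, 1230 and 1096 in the α4β7+ libraries and 1630, 1881, 1952 and 1682 in the α4β7− CD22− libraries. In the CD22+ libraries they were 1745, 1877, 1288 and 1437. Every α4β7− CD22− and every CD22+ library was above every α4β7+ library, while those 2 subsets overlapped each other. The means were 1103 ± 109.5 (SD, n = 4), 1786 ± 154.7 and 1587 ± 271.3. The α4β7− CD22− cells exceeded the α4β7+ cells by 0.70 on the log2 scale (SE 0.118, limma adjusted p = 0.000915). The CD22+ cells exceeded them by 0.51 (adjusted p = 0.00556), a 1.43-fold change that passed the p threshold but not the fold threshold. Without CD22+ library 3 the second difference was 0.61 (adjusted p = 0.00146), which would be called. Between CD22+ and α4β7− CD22− cells the difference was −0.18, with a 95% interval from −0.43 to 0.07. Of the longest coding transcript of Nlrp1b, 7.1% is at least 90% identical to Nlrp1a, so a small part of its reads could be assigned to either gene.

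Nlrp3, the sensor of ion flux and membrane damage, was the lowest of the 10 genes. It is at chr11:59541568-59566956 on the plus strand. Its normalized counts were 28.6, 41.6, 40.0 and 10.4 in α4β7+, 13.3, 2.74, 10.4 and 11.2 in α4β7− CD22−, with 13.2, 18.1, 4.87 and 17.8 in CD22+ libraries. Only the first 3 α4β7+ libraries stood above 20, and the lowest α4β7− CD22− library was, by that estimate, at about the level of 3 reads. The difference of α4β7− CD22− from α4β7+ cells was −1.58 (SE 0.583, limma adjusted p = 0.0887) and that of CD22+ cells was −1.08 (adjusted p = 0.229). Both had overlapping libraries and neither was called. Without α4β7+ library 4, which was the low one, the first difference was −2.004 (adjusted p = 0.035), which would be called, and without library 4 of every subset it was −2.13 (adjusted p = 0.058), which would not.

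Nlrc4, which assembles on the NAIP receptors of flagellin and secretion-system proteins and lies at chr17:74425438-74459142, ranged from 65.2 to 130.7 in α4β7+, 57.0 to 95.6 in α4β7− CD22− libraries and 50.9 to 94.1 in CD22+ libraries. Its differences were −0.31, −0.32 and −0.004 in the 3 comparisons, with adjusted p = 0.499, 0.459 and 0.998. Aim2, the sensor of cytosolic double-stranded DNA at chr1:173350879-173466040, ranged from 457.9 to 744.9, 479.6 to 665.3 and 393.2 to 645.4 in the same order. None of the Aim2 differences, at 0.03, −0.14 and −0.17, was called, and their 95% intervals ran from −0.53 at the lowest to 0.39 at the highest. For both sensors the libraries of the 3 subsets overlapped throughout. Of the Aim2 transcript, 31.0% is at least 90% identical to one or more of 17 other genes, and Aim2 overlaps Cadm3 on the opposite strand, so its counts are less certain than those of the other genes.

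**Figure D2:**
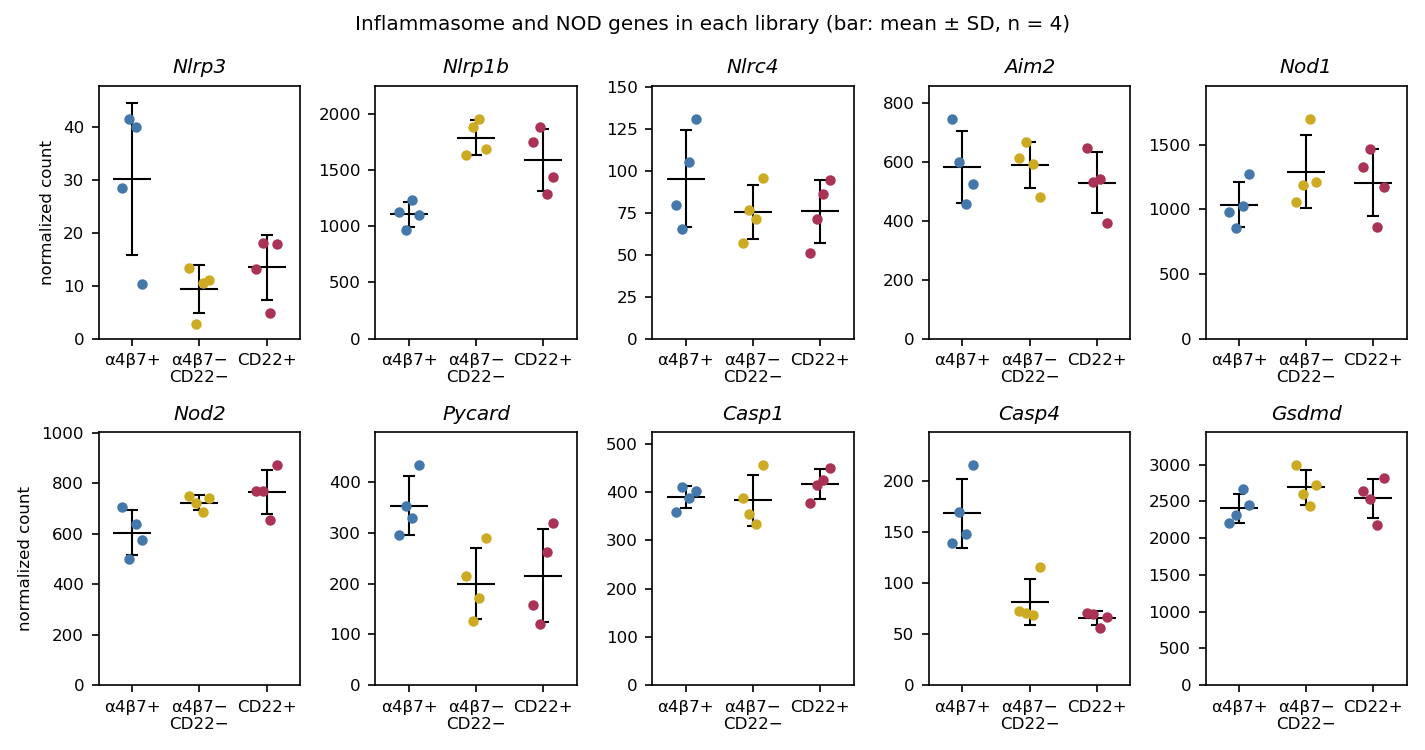
Normalized count of each of the 10 genes in each of the 12 libraries, by subset, with a bar at the mean and an error bar of 1 SD; each panel has its own linear axis from 0. Casp4 is 138.9 to 215.1 in the α4β7+ libraries and at most 115.2 in the others, and Nlrp1b is at most 1230 in the α4β7+ libraries and at least 1288 in the others.

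Both NOD genes had higher means in the α4β7− CD22− and CD22+ cells than in α4β7+ cells, by margins below the call. Nod1, at chr6:54923949-54972612 on the minus strand, had normalized counts of 983.2, 857.4, 1025 and 1273 in α4β7+, 1059, 1190, 1701 and 1214 in α4β7− CD22−, with 1327, 1471, 863.9 and 1172 in CD22+ libraries. The subsets overlapped, and the differences from α4β7+ cells were 0.31 (limma adjusted p = 0.28) and 0.21 (adjusted p = 0.451). Nod2, the receptor of muramyl dipeptide, lies at chr8:88647315-88688474 on the plus strand. It had 705.6, 498.3, 638.8 and 576.8 in α4β7+, 748.7, 721.3, 684.7 and 741.5 in α4β7− CD22−, with 768.7, 770.9, 653.3 and 871.3 in CD22+ libraries. A single α4β7+ library, at 705.6, reached into the range of the other subsets, and the α4β7− CD22− libraries were the tightest, with an SD of 28.67. The CD22+ cells exceeded the α4β7+ cells by 0.34 (SE 0.115, adjusted p = 0.0451), which is 1.27-fold and so was not called. The α4β7− CD22− cells exceeded the α4β7+ cells by 0.27 (adjusted p = 0.141). Between CD22+ and α4β7− CD22− cells Nod1 differed by −0.10 and Nod2 by 0.07, with intervals that stayed within 1.5-fold in either direction. The log2 ratio of Nod2 to Nod1 was −0.77, −0.81 and −0.64 in the 3 subsets, and its smallest exact permutation p was 0.486.

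Pycard, which encodes the adaptor ASC, had its highest levels in α4β7+ cells. Its normalized counts were 296.9, 354.1, 330.3 and 433.6 there, 214.8, 125.8, 171.4 and 289.7 in α4β7− CD22−, with 158.4, 121.1, 263.6 and 319.0 in CD22+ libraries. The α4β7− CD22− libraries all lay below the α4β7+ libraries, by a narrow gap between 289.7 and 296.9, and 1 CD22+ library lay among the α4β7+ libraries. The difference from α4β7+ cells was −0.87 (SE 0.292, limma adjusted p = 0.0608) in α4β7− CD22− and −0.80 (adjusted p = 0.0662) in CD22+ cells. Both exceeded 1.5-fold and missed the p threshold, so Pycard was not called. With the replicate number as a block it was called in both (adjusted p = 0.0148 and 0.016), although the numbers are not known to pair these libraries. In each subset library 4 had the most Pycard, and in each subset it also had the highest sum of 8 macrophage and monocyte markers, at 3126, 2931 and 3680. The sums ranged from 2626 to 3126 in α4β7+, 2162 to 2931 in α4β7− CD22− libraries and 1893 to 3680 in CD22+ libraries, every one of the 8 markers was detected, and none was called between subsets. Their part in the Pycard values was not tested. Without library 4 of every subset the Pycard differences were −0.96 (adjusted p = 0.0482) and −0.92 (adjusted p = 0.0404), both of which would be called. Pycard lies at chr7:127989708-127993867 on the minus strand and shares bases with Gm45205 on the opposite strand.

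Casp1 and Casp4 are neighbours on chromosome 9, at 5298517-5307265 and 5308828-5336783 on the plus strand, with 1562 bases between them. Casp1, the caspase that matures IL-1β, had normalized counts of 359.0, 411.5, 386.7 and 402.6 in α4β7+, 387.9, 354.9, 333.3 and 455.2 in α4β7− CD22−, with 376.8, 414.6, 425.9 and 450.4 in CD22+ libraries. The 3 subsets overlapped. The differences were −0.03, 0.09 and 0.13 in the 3 comparisons, and their 95% intervals lay between −0.28 and 0.37, which is within 1.5-fold in either direction.

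Casp4 was lower in both other subsets than in α4β7+ cells. The α4β7+ libraries had 138.9, 169.7, 148.4 and 215.1 normalized counts. The α4β7− CD22− libraries had 72.0, 70.9, 68.6 and 115.2, and the CD22+ libraries had 70.6, 69.99, 55.8 and 66.8. Every α4β7+ library was above every other library, and 7 of the 8 remaining libraries were between 55.8 and 72.0. The means were 168.0 ± 33.92 (SD, n = 4), 81.66 ± 22.4 and 65.78 ± 6.884. Casp4 was 2.06-fold lower in α4β7− CD22− than in α4β7+ cells, at −1.05 on the log2 scale (SE 0.211, limma adjusted p = 0.00351). In CD22+ cells it was 2.51-fold lower, at −1.33 (SE 0.211, adjusted p = 0.000324). The CD22+ and α4β7− CD22− cells differed by −0.28 (95% interval −0.73 to 0.17, adjusted p = 0.773). The sum of 8 neutrophil markers was also highest in α4β7+ cells, at 14460 to 22100 against 6002 to 8077 and 2877 to 3693. That sum was mostly Retnlg, with means of 18830, 6709 and 3053. S100a8 averaged 0, 0.257 and 0, and Ly6g averaged 2.928, 0.481 and 1.448. S100a9 (18.99, 9.592 and 2.873) and Mmp8 (34.76, 24.18 and 4.982) were called lower in CD22+ than in α4β7+ cells, as was Retnlg, while Ngp (31.63, 106.4 and 143.4) was called higher. Retnlg (−1.48) and Ngp (1.71) were called in the same directions in α4β7− CD22− against α4β7+ cells. Of 6 T cell markers in the table, Cd3e (157.1 against 69.76, adjusted p = 0.0168) and Cd8a (164.2 against 81.41, adjusted p = 0.0178) were called lower in α4β7− CD22− than in α4β7+ cells, and none was called in CD22+ against α4β7+ cells. The summed T cell markers ranged from 894.8 to 1511 in α4β7+, 580.1 to 846.4 in α4β7− CD22− libraries and 866.9 to 1326 in CD22+ libraries. The part of the neutrophil and T cell markers in the Casp4 values was not tested. Library 4 was the highest for Casp4 in α4β7+ and in α4β7− CD22− cells, and without library 4 of every subset the differences were −1.10 (adjusted p = 0.00649) and −1.21 (adjusted p = 0.00198).

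The ratio of Casp4 to its neighbour was also compared within libraries. The log2 ratio of Casp4 to Casp1 averaged −1.23 ± 0.22 (SD, n = 4) in α4β7+, −2.24 ± 0.19 in α4β7− CD22− libraries and −2.65 ± 0.22 in CD22+ libraries. The α4β7+ libraries were apart from both others (two-sided exact permutation test, p = 0.0286, the smallest that 4 against 4 can give). The log2 ratio of Pycard to Casp1 averaged −0.15 ± 0.17, −0.99 ± 0.36 and −1.05 ± 0.57, and the α4β7+ libraries were again apart from both others (exact p = 0.0286). The gene pairs were chosen after the values were seen. Over the 12 ratio tests the adjusted p was 0.0686 at best, so none of them passed.

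Gsdmd, the pore former downstream of both caspases, was the most abundant of the 10 genes. It lies at chr15:75862327-75867408 on the plus strand. Its normalized counts were 2206, 2311, 2667 and 2451 in α4β7+, 2991, 2603, 2442 and 2726 in α4β7− CD22−, with 2640, 2539, 2177 and 2814 in CD22+ libraries. The subsets overlapped, and the differences were 0.16, 0.08 and −0.08, with 95% intervals that lay between −0.28 and 0.36. All of these are within 1.5-fold in either direction.

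Counted by overlap alone, 3 of 10 genes had libraries that did not overlap between α4β7− CD22− and α4β7+ cells, namely Nlrp1b, Pycard and Casp4, beside 18.8% of all genes. Between CD22+ and α4β7+ cells there were 2 of 10, Nlrp1b and Casp4, beside 22.9%, and between CD22+ and α4β7− CD22− cells there were 0 of 10 beside 6.37%. The shares in the 10 genes were near those of all genes. The intervals of Aim2, Casp1 and Gsdmd lay within 1.5-fold in all 3 comparisons, whereas those of Nlrp3, Pycard and Casp4 did so in none.

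Levels were compared between genes per kilobase of the longest coding transcript. In CD22+ cells the order was Gsdmd at 1419 normalized counts per kilobase, Nlrp1b at 383.8, Nod1 at 280.0, Casp1 at 278.5, Aim2 at 185.9, Nod2 at 162.3, Pycard at 56.7, Casp4 at 45.8, Nlrc4 at 16.0 and Nlrp3 at 3.36. Gsdmd was above every other gene in every library of all 3 subsets, and Nlrc4 and Nlrp3 were the lowest, each apart from its neighbours. Nlrp1b overlapped Nod1, Nod1 overlapped Casp1, Aim2 overlapped Nod2 and Pycard overlapped Casp4, so these neighbours had no firm order in CD22+ cells. In α4β7+ cells Casp4, at 117.1, stood above Pycard, at 93.1, with overlap, and overlapped Nod2, at 128.2, whereas in the other 2 subsets Nod2 was apart from the gene below it. With the median transcript length in place of the longest, the ranks in CD22+ cells were 2 for Nod1, 3 for Aim2, 4 for Nlrp1b and 5 for Casp1, so that the middle of the order depends on which transcript is used. By average normalized count, with no length, the 10 genes ran from the 8.64th percentile of the genes tested for Nlrp3 to the 91.8th for Gsdmd.

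**Figure D3:**
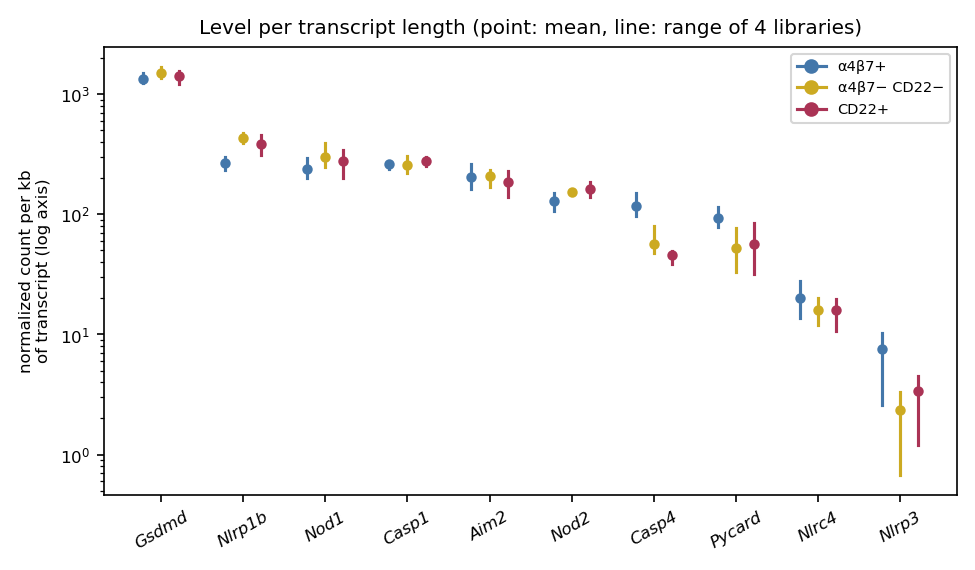
Normalized count per kilobase of the longest coding transcript for the 10 genes in the 3 subsets, on a log axis; points are means over 4 libraries and bars run from the lowest to the highest library. Gsdmd is at 1344 to 1501 in the subset means and Nlrp3 at 2.34 to 7.50.

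The genes with the nearest profiles over the 12 libraries were found for the called genes, by the root mean square difference of log2(normalized count + 1) after each gene's mean was removed, among 9177 genes with an average of at least 100 normalized counts. For Nlrp1b they included Ggta1 (0.114) and Il10ra (0.119). Il10ra averaged 2976, 4643 and 4189 normalized counts in the 3 subsets. For Casp4 they were Bcl3 (0.207), Rnase6 (0.213) and Mapkapk3 (0.216), and Bcl3 averaged 515.3, 290.8 and 242.6. These are descriptions of likeness in 12 libraries that share their subsets.

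The wider pathway was followed in 6 lists of 75 genes, of which 73 were in the table and 69 were tested. Each list's calls are to be read beside the shares of all genes called, and no list was tested against other genes. In α4β7− CD22− against α4β7+ cells 9 of the 69 were called higher and 3 lower, beside 3.7% and 4.35% of all genes, with a median log2 change of 0.01. In CD22+ against α4β7+ cells 10 were called higher and 6 lower, beside 5.6% and 6.39% of all genes, with a median of −0.02. In these comparisons 28 and 31 of the 69 had an unadjusted limma p under 0.05, beside 27.1% and 32.0% of all genes. Between CD22+ and α4β7− CD22− cells 0 were called by limma, 12 had an unadjusted p under 0.05 beside 9.67% of all genes, and the median was 0.04. In that last comparison 0.21% of all genes were called higher and 0.393% lower. With the libraries paired by their replicate number, 1 gene, Gsdme, was called in it.

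Among 13 other NLR and pyrin sensors, 3 were called higher and 1 lower in each comparison with α4β7+ cells, where 3.7% and 5.6% of all genes were called higher and 4.35% and 6.39% lower. Nlrp1a, the paralog of Nlrp1b, rose from 705.3 ± 95.68 in α4β7+ to 1394 ± 129.5 in α4β7− CD22− (0.99, limma adjusted p = 1.81e-05) and was at 1762 ± 143.2 in CD22+ cells (1.33, adjusted p = 4.33e-07). Of its transcript 29.6% is at least 90% identical to other genes, so its level is less certain than that of Nlrp1b. Mefv, which encodes the inflammasome sensor pyrin, averaged 772.8, 1533 and 1684 (1.00 and 1.13 against α4β7+). Nlrx1, a mitochondrial NLR, averaged 243.4, 503.1 and 600.4 (1.05 and 1.297). Of the 4 NAIP receptors listed, which act with Nlrc4, 2 were called lower, each in 1 comparison. Naip2 was lower in α4β7− CD22− cells, at 372.3 against 611.3 (−0.71, adjusted p = 0.000583), and Naip6 was lower in CD22+ cells, at 752.3 against 1157 (−0.62, adjusted p = 0.000361). Reads of the NAIP genes can be split between them, since 60.6% of the Naip2 and 69.4% of the Naip6 transcript is at least 90% identical to other genes.

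Of 8 tested genes of cytosolic nucleic acid sensing, Cgas, the DNA sensor that makes cGAMP, was called higher in both comparisons with α4β7+ cells (0.60 and 0.74, limma adjusted p = 0.0469 and 0.0107), with overlapping libraries. The first of these calls was lost under 16 alternatives, leaving out any of 11 libraries among them, with adjusted p from 0.0501 to 0.181. Ifih1, which encodes the RNA sensor MDA5, was called higher in CD22+ cells (0.59, adjusted p = 0.000256). Of 16 genes of inflammasome priming and control, Card9 was called higher, averaging 1002, 1852 and 1991 in the 3 subsets, and Trim30a and Tnfaip3 were called lower in both comparisons. Tnfaip3, which encodes the NF-κB inhibitor A20, was at 24180 ± 983.5 in α4β7+ cells, fell to 6185 ± 824.7 in α4β7− CD22− cells (−1.98, adjusted p = 1.05e-08) and was at 4323 ± 324.7 in CD22+ cells (−2.49, adjusted p = 2.76e-10). Trim30a averaged 688.6, 393.5 and 362.6, and 47.5% of its transcript is at least 90% identical to other genes.

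The 10 tested cell death effectors held the pathway gene with the largest rise. Gsdme, the gasdermin that caspase-3 cleaves, averaged 174.9 ± 35.5 in α4β7+, 746.4 ± 88.93 in α4β7− CD22− cells and 1145 ± 216.9 in CD22+ cells. The rise was 2.11 (limma adjusted p = 7.24e-07) and 2.71 (adjusted p = 1.82e-08) against α4β7+ cells. Between CD22+ and α4β7− CD22− cells it was 0.61, with adjusted p = 0.105 without and 0.0285 with the replicate block. Gsdmd, described above, differed by 0.16 and 0.08 in the same comparisons and was not called. Ripk3, a kinase of necroptosis, was called higher in CD22+ cells (0.62, adjusted p = 0.0119). Ninj1, which ruptures the membrane of dying cells, was called lower in CD22+ cells, at 1852 against 3556 (−0.95).

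Of the 5 tested inflammasome cytokines and antagonists, Il1b was called higher in both comparisons. It averaged 17290 ± 2297 in α4β7+, 30630 ± 4515 in α4β7− CD22− (0.82, limma adjusted p = 0.000635) and 33450 ± 5700 in CD22+ cells (0.94, adjusted p = 0.00011). Il1r2, the decoy receptor of IL-1, averaged 4384, 8623 and 6774 and was also called higher in both (1.01 and 0.67). Il1a averaged 22800, 21360 and 15050 and was called lower in CD22+ cells (−0.61, adjusted p = 0.000853), where quantile normalization gave −0.29 (adjusted p = 0.0202) and no call. Il18, whose product is the other cytokine matured by caspase-1, was between 1.951 and 14.66 normalized counts in the 12 libraries and fell below the filter.

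Of the 17 genes of NOD signalling, 1 was called by limma in the comparisons with α4β7+ cells, beside the shares of all genes given above. This was in CD22+ cells. Birc3, which encodes the ubiquitin ligase cIAP2, was called lower in CD22+ than in α4β7+ cells, at 8129 against 14510 (−0.83, adjusted p = 3.59e-06). Of the Birc3 transcript, 29.3% is at least 90% identical to other genes. Ripk2, the kinase that NOD1 and NOD2 share, was at 63.2, 64.3 and 59.4 in the 3 subsets and was not called.

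**Figure D4:**
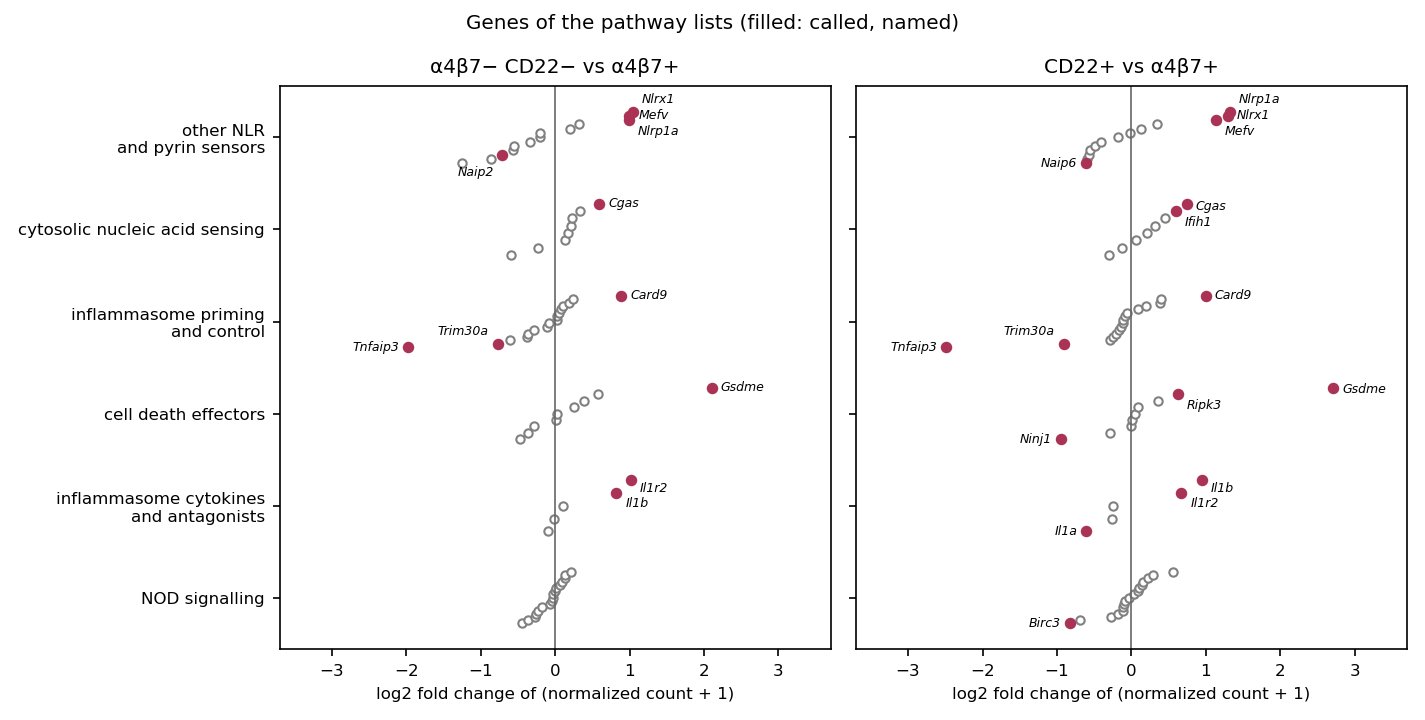
Log2 fold change of tested genes of the 6 pathway lists in α4β7− CD22− and in CD22+ cells, each against α4β7+ cells; filled and named points were called. Gsdme lies farthest to the right, at 2.11 and 2.71, and Tnfaip3 farthest to the left, at −1.98 and −2.49, and Birc3 is the 1 filled point of NOD signalling, at −0.83.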

How the data were processed

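RNA from 12 libraries of sorted SI eosinophils, 4 in each of 3 subsets, was made with a stranded total RNA kit from 3 ng of input. Per the labels, the authors trimmed reads with Trimmomatic 0.39, quantified them with kallisto 0.46.1 on mm10/GRCm38 and normalized with DESeq2 1.38.2. The strand setting and the transcript annotation are not given in the sources used here. The deposited values are normalized counts per gene, treated as a signal; whole reads could not be recovered, since 25.6% to 59.1% of low values per library lay within 5% of a whole read, so no count test was run. No column of the table was left without a sample.

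Symbols selected the 10 genes. The genes and the lists were chosen with earlier results of these data known. Genes with an average above 10 were tested with limma 3.58.1 (R 4.3.3, with trend) on log2(value + 1) over all 12 libraries, with Benjamini-Hochberg adjustment within a comparison. All 10 genes passed the filter, so no separate test of genes under it was needed. The code was tested on simulated data. A p-value measures only the spread between libraries. Named genes are the 10 genes, every pathway gene called, and the 3 nearest profiles of each called gene; other genes were named after their values were seen, and some genes that meet this rule are not reported here. Shared sequence was found with BLAST 2.17.0 at 90% identity on GRCm38 transcripts. Alternatives were the pseudocount, filter, scaling, trend, samples in the model, the fold threshold, each library left out and a replicate block. Leaving out library 4 of every subset was added after the data were seen.

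Neither the labels nor the methods say that a replicate number marks a shared animal, litter or day. From the data, libraries of the same number deviated together between CD22+ and α4β7− CD22− cells (correlations 0.135, 0.161, 0.177 and 0.203). Under the rule that every correlation exceed 0.1, the numbers were treated as possibly pairing the libraries of this comparison. Libraries of different numbers were not correlated, so the pairing is not established. Values of this comparison in the text are from the fit without the block unless the block is named. With the replicate block, 0 of the 10 genes were called in it, and 1 pathway gene. In the other comparisons some of the 4 correlations were under 0.1, and the libraries share only a number.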

Additional observations from a re-analysis of the deposited data

Results flagged for a closer look

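One value stood apart from the others of its subset. In α4β7− CD22− cells the Casp4 level of library 4 was 115.2 normalized counts, against 68.6 to 72.0 in the other 3 libraries, and the gap to its nearest neighbour was 0.926 of the whole range of the subset, above the Dixon critical value for 4 libraries. It was the 1 such library among 30 groups of a gene and a subset, where chance alone gives about 1 in 20. The same library had the highest macrophage and monocyte marker sum (2931), dendritic cell marker sum (5823), epithelial marker sum (4921) and B and plasma cell marker sum (33090) of its subset. It was not the highest for T cell (819.4, highest 846.4), Paneth cell (300.9, highest 369.9) or neutrophil markers (6573, highest 8077). Nor was it for stromal and endothelial markers (12650, highest 13790). The part of these markers in the Casp4 value was not tested.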

How the results depend on the processing

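Nlrp1b and Casp4 kept their calls in α4β7− CD22− against α4β7+ cells under every alternative, and Casp4 in CD22+ against α4β7+ cells. In CD22+ against α4β7+ cells the count of called genes moved from 1 to 2 with quantile normalization, with the replicate block and without replicate 4 in every subset, and to 3 with the adjusted p alone. Leaving out 1 library at a time gave 2 to 3, 1 to 2 and 0 called genes in the 3 comparisons. Pycard passed in α4β7− CD22− against α4β7+ cells with a filter of 50 (adjusted p = 0.0493), with only both subsets in the model (0.026), with the replicate block (0.0148), and without α4β7− CD22− replicate 4 (−1.07, 0.0299), CD22+ replicate 2 (0.0356) or CD22+ replicate 4 (0.0415). In CD22+ against α4β7+ cells it passed with quantile normalization (0.0485), with the replicate block (0.016) and without CD22+ replicate 4 (−1.02, 0.0218). The block took Nod2 there to an adjusted p of 0.0516. Called pathway genes moved with the adjusted p alone from 12 to 20, from 16 to 26 and from 0 to 4, and with the replicate block from 0 to 1 in CD22+ against α4β7− CD22− cells and from 12 to 13 in α4β7− CD22− against α4β7+ cells, where Nlrc5 was added as lower (−0.86, adjusted p = 0.0261); leaving out 1 library gave 10 to 13, 13 to 16 and 0 to 1, the last from leaving out α4β7+ replicate 2. Cgas lost its call in α4β7− CD22− against α4β7+ cells when any library but α4β7+ replicate 1 was left out. In CD22+ against α4β7+ cells 5 named pathway genes lost theirs under some alternatives. Ifih1 did so without CD22+ replicate 1 (0.54) or 2 (0.55) or α4β7+ replicate 2 (0.57) or 3 (0.54), and Naip6 without CD22+ replicate 1 (−0.56) or α4β7+ replicate 4 (−0.55). Il1a did so without CD22+ replicate 3 (−0.50) or α4β7+ replicate 1 (−0.55) or 3 (−0.57), Ripk3 without CD22+ replicate 1 (0.50) or 4 (0.58) or α4β7+ replicate 2 (0.57), and Il1r2 without α4β7+ replicate 2 (0.53). With these single libraries left out, all still passed the p threshold and fell short of the 1.5-fold threshold. Quantile normalization and rescaling by the 75th percentile also took the calls of Naip6 (−0.58 in both) and Il1a (−0.29 and −0.57). Those values passed the p threshold. Without replicate 4 in every subset Naip6 lost its call by the fold threshold (−0.54). Ripk3 (0.56, limma adjusted p = 0.0805) and Il1r2 (0.60, adjusted p = 0.0841) missed the p threshold there. Small differences changed sign: Nlrc4 in CD22+ against α4β7− CD22− cells was 0.008 after rescaling by the 75th percentile and 0.002 without replicate 4 in every subset. Over the libraries left out, Nlrc4 ran there from −0.13 to 0.17, Nod1 from −0.203 to 0.053 and Pycard from −0.16 to 0.31, and in α4β7− CD22− against α4β7+ cells Aim2 ran from −0.078 to 0.155 and Casp1 from −0.121 to 0.028. The cause of these moves was not tested. With a filter of 50 Nlrp3 had no value. The depth limits Nlrp3, whose lowest library was near the estimated level of 3 reads. The replicate block changed no other call of the 10 genes.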
